A study of Mus musculus with 24 samples.

Results

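Established colonic adenomas were compared with the first days after loss of Apc, to separate what the polyps carried beyond the acute response, what the acute response carried beyond the polyps, and what both had in common. All 24 of the 24 arrays of the series entered, in 8 groups of 3. Colonic polyps of ApcMin mice, whose germline Apc mutation truncates the protein, were set against normal colonic mucosa of mice of the same genotype (polyp effect), so that both colonic groups carried the mutation. Each polyp array held polyps pooled from the colon of 1 symptomatic mouse. Small intestine of AhCre Apcfl/fl mice was set against that of AhCre mice with wild-type Apc at days 3, 4 and 5 after induction (deletion effect, the mean of the 3 days). AhCre is a Cre transgene under the Cyp1a1 promoter, on an outbred background, and mice of both genotypes carried it. All 18 small intestinal samples came from mice given 3 injections of β-naphthoflavone (80 mg/kg) in 1 day to switch it on. The labels give no such treatment for 5 of the 6 colonic samples and do not state it for polyp replicate 1. The test was the difference between both effects (polyp effect minus deletion effect) in a single limma fit with 1 mean per group. The arms differ in organ, allele, time since loss of Apc and inducer, and what each of these contributes cannot be told apart.

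Apc is a scaffold of the complex that marks β-catenin for degradation. Without it β-catenin accumulates, enters the nucleus and, with Tcf/Lef factors, drives Wnt target genes that are normally restricted to the base of the intestinal crypt. An adenoma grows from a crypt cell that has lost Apc function and comes to hold stromal, vascular and inflammatory cells as well, whereas induced deletion removes the gene from most of the epithelium at once.

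Signals are given on a scale on which each array's geometric mean is 100, and effects are on the log2(signal + 16) scale with ± 1 SE from the fit. For the 9 Apcfl/fl and the 9 wild-type small intestinal arrays the lowest, highest and median values are given. The geometric mean before scaling was 69.1 to 178, and arrays of a group correlated at 0.923 or above. The SD of log2 signal was 2.26 to 2.34 in Apcfl/fl against 2.00 to 2.18 in wild-type small intestine at day 4, and 2.22 to 2.38 against 1.96 to 2.10 at day 5. Polyps had Gapdh 3'/5' ratios of 0.771 to 0.796, below the 0.806 to 1.15 of normal colon. Hoxb13, a homeobox gene of the distal gut, was at 1028, 874 and 1367 in polyps, 1995, 2356 and 1774 in normal colon and 1.25 to 4.42 in all small intestinal arrays. Apoa1, an apolipoprotein of small intestinal enterocytes, was at 3284 to 12756 in small intestine, 2.47 to 19.1 in polyps and 5.42 to 45.1 in normal colon. The probe set used for Apc itself had a deletion effect of 0.23 ± 0.12 (limma adjusted p = 0.134), and the sources used here do not say whether it lies within the deleted part, so it is no check of the labels. The animal names of wild-type day 4 begin with Ras, as no others do. The name of normal colon replicate 1 carries another prefix than those of the other 5 colonic arrays, and a further code is TH on polyps and AC on normal colon. What these mark is not given, and the last cannot be told apart from the comparison.

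Of 15427 genes, the difference between the effects passed an adjusted p of 0.05 (limma, Benjamini-Hochberg) for 2777 (18.0%), of which 1089 (7.06%) were higher in the polyp effect and 1688 (10.9%) lower. The median difference of all genes was -0.10. This balance depends on the scaling, since 39.2% of the called genes were higher here, 50.5% after quantile normalization (1312 higher and 1286 lower, median difference 0.01), 47.9% with the authors' standardized values (1069 and 1164) and 34.7% after centring each array on its median (986 and 1859, median -0.14). Of 9 housekeeping genes, the difference was called downward for 4 here (median -0.80), for 1 after quantile normalization (median 0.01) and for 1 with the authors' standardized values (median -0.32). Taken alone, the polyp effect was called for 22.0% of genes, 1608 upward (10.4%) and 1789 downward (11.6%). The deletion effect was called for 53.7%, 4535 upward (29.4%) and 3747 downward (24.3%). List counts given below are to be read beside these shares. A list with near 29.4% of its members up or 24.3% down after deletion is at the share of all genes. The deletion effect rested on 9 against 9 arrays and the polyp effect on 3 against 3, with a median SE of 0.149 and 0.258, so the numbers of calls in the arms cannot be set against each other as sizes of change. Changes of more than log2 3 were found for 137 genes in polyps and for 5 after deletion, and the SD of the effect over genes was 0.792 and 0.603.

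The polyps and the deletion experiment share no array, and over the 15427 genes their effects had a Pearson r of 0.375, a description over genes, which are not independent replicates. Genes called upward in both arms numbered 921, which is 57.3% of the genes up in polyps and 20.3% of those up after deletion. Genes called downward in both numbered 784, or 43.8% and 20.9% of the respective lists. Opposite calls were made for 299 genes, 143 up in polyps and down after deletion (0.927%) and 156 the other way (1.01%).

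A gene was counted as adenoma-only where its polyp effect and the difference were called and its deletion effect was not, and as deletion-only in the mirror case. Adenoma-only genes numbered 386 upward (2.50%) and 576 downward (3.73%), and deletion-only genes 698 upward (4.52%) and 432 downward (2.80%). The median polyp effect of the 386 was 1.41 beside a median deletion effect of -0.10, and that of the 576 was -1.22 beside 0.04. Deletion-only genes had median deletion effects of 0.81 and -0.77, beside polyp effects of -0.22 and 0.37. Among genes moving the same way in both, the difference was not called for 814 that rose (5.28%) and 601 that fell (3.90%), while 92 rose more in polyps (0.596%), 15 rose more after deletion (0.0972%) and 183 fell more in polyps (1.19%). Polyps did not overlap normal colon for 368 of the 386 and 558 of the 576 adenoma-only genes, against 37.6% of all genes. Apcfl/fl arrays did not overlap wild-type arrays on any of the 3 days for 395 of the 698 and 159 of the 432 deletion-only genes, against 15.9% of all genes. The calls chose these genes, so both counts are descriptions.

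**Figure D1:**
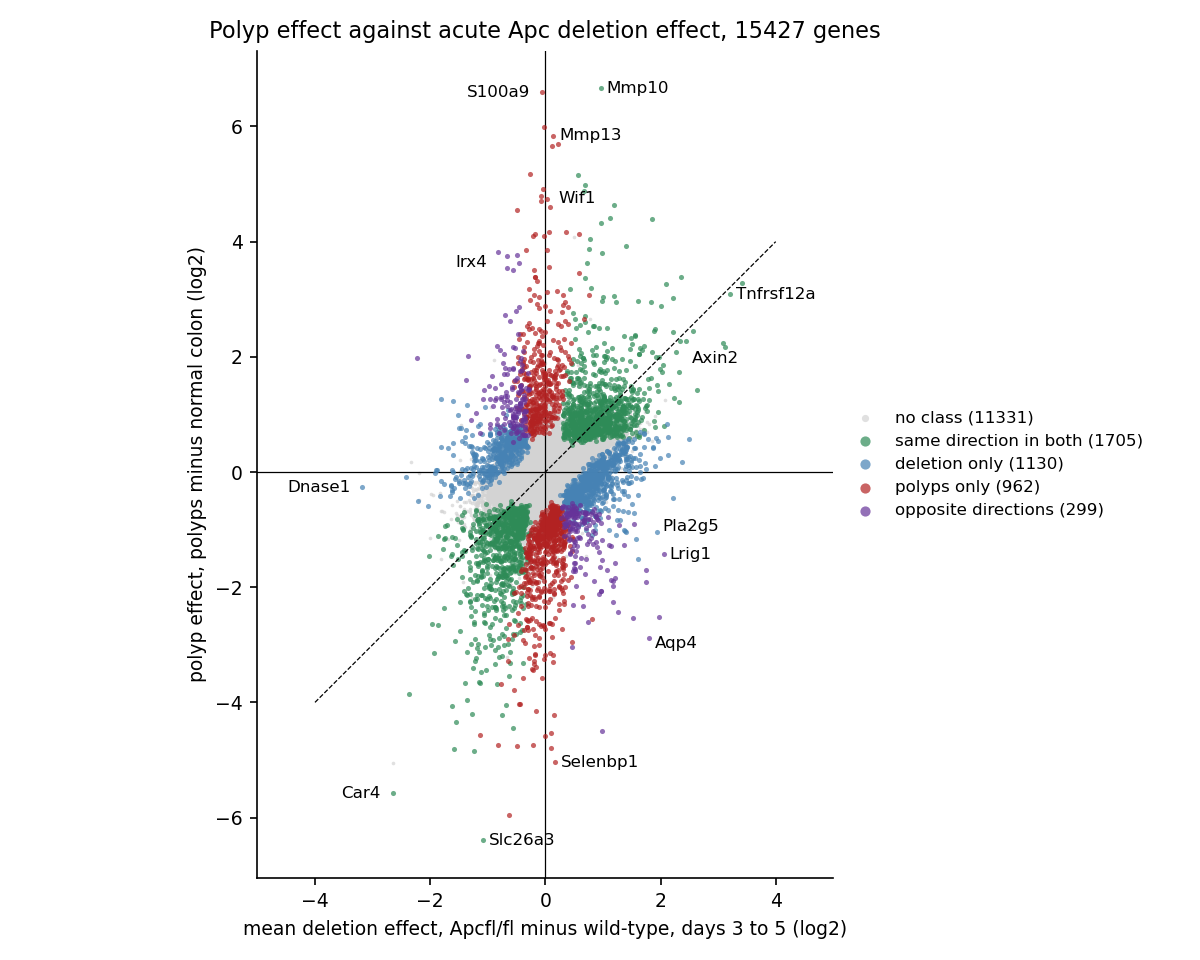
Polyp effect (polyps minus normal colon, vertical axis) against the mean deletion effect of days 3, 4 and 5 (horizontal axis), both in log2(signal + 16), 1 point per gene for 15427 genes and coloured by class. The 921 and 784 genes called in the same direction in both arms lie in the upper right and lower left, some of them off the diagonal. The 386 and 576 adenoma-only genes spread vertically near a deletion effect of 0, and the vertical spread (SD 0.792) exceeds the horizontal one (0.603).

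What both arms shared was the core Wnt response. Of 22 Wnt target genes measured, 16 rose in polyps and 17 after deletion, none fell in either, and the median effects were 1.47 and 1.68, beside -0.02 and 0.01 over all genes. The difference between the arms was called for 4 of them upward and 4 downward, for 6 and 2 after quantile normalization and for 7 and 3 with the authors' standardized values. Axin2, which encodes a negative feedback scaffold of the pathway, read 1588, 1281 and 2722 in polyps and 389, 349 and 322 in normal colon. In the small intestine it read 909.8 to 2084 (median 1689) in Apcfl/fl and 219 to 363 (median 279) in wild-type arrays. Neither pair of groups overlapped, and the effects were 2.28 ± 0.28 and 2.34 ± 0.16, with a difference of -0.07 ± 0.32 (95% interval -0.73 to 0.60, limma adjusted p = 0.911). The other Axin2 probe set, which was dimmer, gave 2.82 in polyps and 1.72 after deletion, a difference of 1.10 that was called (limma adjusted p = 0.0282).

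Rnf43, an E3 ligase that removes Wnt receptors, read 730.1, 619 and 966 in polyps against 123, 177 and 137 in normal colon, and its effects of 2.27 ± 0.29 and 2.44 ± 0.17 had a difference of -0.17 (interval -0.86 to 0.52). The transcription factor gene Sp5 read 179.6, 192 and 333 against 22.3, 2.52 and 1.48, and 269 to 943 (median 368) against 19.6 to 124 (median 70.9) after deletion. Its effects of 3.39 ± 0.47 and 2.35 ± 0.27 differed by 1.04 with an interval of -0.08 to 2.16, wide enough to include 0. For the transcription factor genes Myc and Sox4 the polyp effects were 1.53 ± 0.27 and 2.43 ± 0.25, and the deletion effects 2.14 ± 0.16 and 2.21 ± 0.14. Lgr5, which marks crypt base stem cells, rose by 1.96 ± 0.22 in polyps (762, 612 and 919 against 257, 172 and 134) and by 1.32 ± 0.13 after deletion, with no overlap of genotypes on any day. Of 6 dimmer probe sets of Sox4, 4 rose after deletion, by 1.13 to 3.04, and 2 fell, by 1.69 and 1.85, and the dimmer 1 of Lgr5 fell by 0.39.

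Hunk, a kinase gene on which the study centred, belonged to this shared part. It read 739.6, 638 and 860.2 in polyps and 199, 171 and 210.3 in normal colon, and 343 to 916 (median 652) in Apcfl/fl against 119 to 202 (median 130.4) in wild-type small intestine. The lowest Apcfl/fl array was above the highest wild-type array and the lowest polyp array above the highest colon array. The effects of 1.86 ± 0.21 and 2.04 ± 0.12 differed by -0.19 ± 0.24 (interval -0.69 to 0.31, limma adjusted p = 0.635). Of the other genes with the largest effects in both arms, Pole, the catalytic subunit of DNA polymerase epsilon, had effects of 3.28 and 3.41, the TWEAK receptor gene Tnfrsf12a 3.09 and 3.21, the ETS factor gene Etv4 2.45 and 2.57, the phosphatase gene Dusp4 3.03 and 2.21, and Tnfrsf19, a TNF receptor family member of crypt stem cells, 2.17 and 3.12. Proliferation genes moved with them. Of 35 cell cycle genes, 17 rose in polyps and 30 after deletion (medians 0.67 and 1.05), and the difference was called upward for 1 and downward for 3. The downward count was 0 without normal colon replicate 1 and 6 without normal colon replicate 3, and the median difference of the list was -0.22 here and 0.05 after quantile normalization. Mcm3, a replication licensing factor gene, had effects of 1.38 ± 0.24 and 1.29 ± 0.14 (a called difference of -0.85 on a dimmer probe set), and Cdk1, the mitotic kinase gene, 1.13 ± 0.25 and 1.05 ± 0.14.

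**Figure D2:**
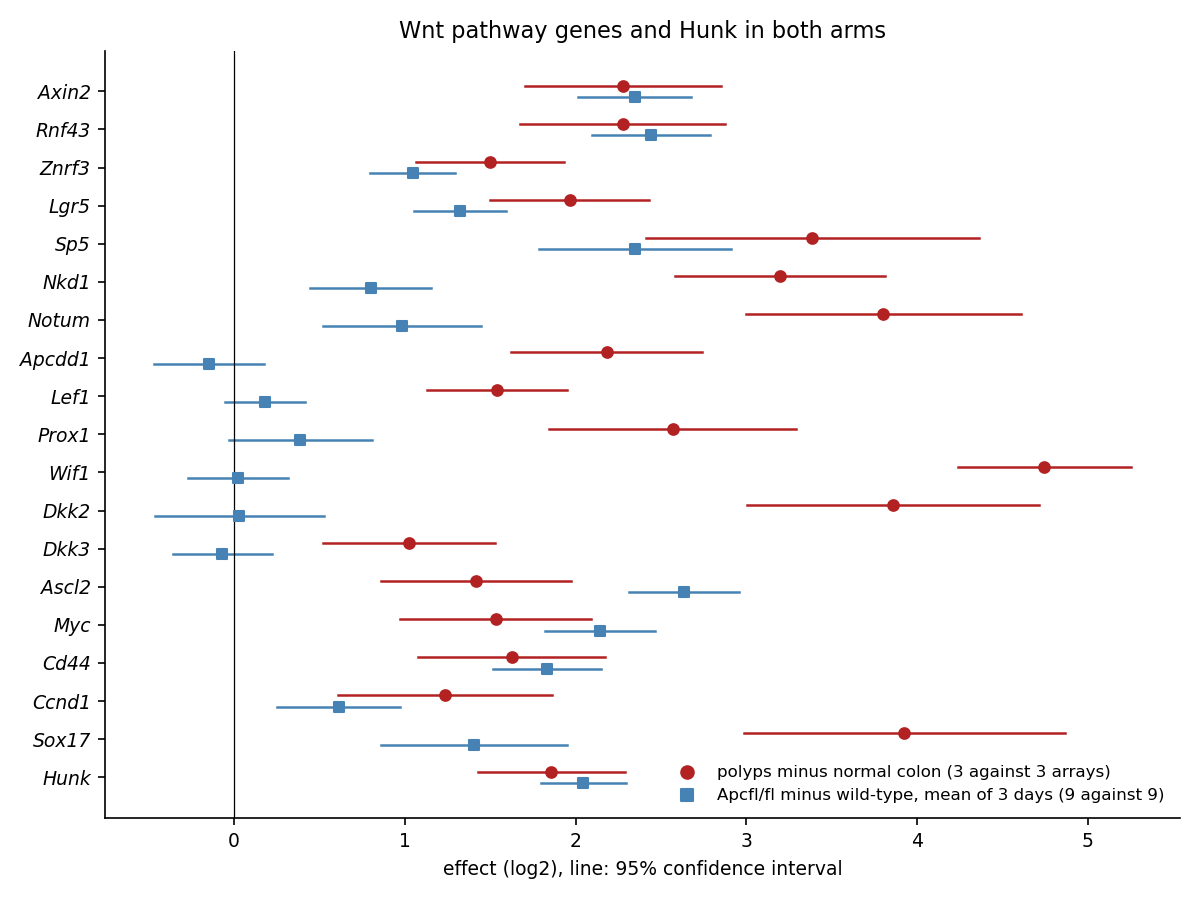
Polyp and deletion effects (log2(signal + 16), points with 95% intervals) of genes of the Wnt pathway. On the brightest probe set Axin2, Rnf43 and Hunk have nearly equal effects in both arms, Notum and Nkd1 rise further in polyps, and Wif1 and Dkk2 rise in polyps with deletion effects of 0.02 and 0.03.

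Promoter windows around the RefSeq transcription start (build GRCm38.p6, 300 bases, read in the direction of the gene) were searched on both strands for the Tcf/Lef words CTTTGAT and CTTTGTT and for the AP-1 word TGANTCA. A Tcf/Lef word lies in 9.33% of all 32851 windows of the table and an AP-1 word in 7.81%. Shown first are 3 genes that rose in both arms, with any match in capitals. Tnfrsf19 has 2 windows, and the first, which is not shown, holds neither word. The window of Sp5 (chr2:70474673-70474972, plus strand) holds Tcf/Lef words at bases 29 and 147, the second window of Tnfrsf19 (chr14:61037938-61038237, minus strand) holds 1 at base 49, and that of Hunk (chr16:90386147-90386446, plus strand) holds neither word.
Sp5: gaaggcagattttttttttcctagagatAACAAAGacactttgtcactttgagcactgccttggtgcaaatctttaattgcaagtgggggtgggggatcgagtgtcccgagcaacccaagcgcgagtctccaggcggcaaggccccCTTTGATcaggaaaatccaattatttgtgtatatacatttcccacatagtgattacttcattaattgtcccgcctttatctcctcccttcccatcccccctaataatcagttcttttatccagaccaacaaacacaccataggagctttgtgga
Tnfrsf19: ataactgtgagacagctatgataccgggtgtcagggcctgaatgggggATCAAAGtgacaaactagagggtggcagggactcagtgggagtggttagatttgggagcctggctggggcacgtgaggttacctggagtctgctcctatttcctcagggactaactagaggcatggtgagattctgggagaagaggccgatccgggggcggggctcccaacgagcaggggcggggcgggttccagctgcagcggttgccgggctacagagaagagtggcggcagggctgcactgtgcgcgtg
Hunk: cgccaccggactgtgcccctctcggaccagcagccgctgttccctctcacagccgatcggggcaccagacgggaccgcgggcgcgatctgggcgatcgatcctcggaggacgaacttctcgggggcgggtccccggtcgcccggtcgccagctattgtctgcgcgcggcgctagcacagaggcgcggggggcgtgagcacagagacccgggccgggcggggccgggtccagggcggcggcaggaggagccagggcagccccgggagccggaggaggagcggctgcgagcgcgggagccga
No match stood in the windows of Axin2, Rnf43, Ascl2, Wif1 or Dkk2. A match is a description of letters, and none says only that these words are not in this window.

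Some Wnt genes rose in both arms but further in polyps. Of 11 intracellular and membrane feedback genes, 9 rose and 1 fell in polyps, 6 rose and none fell after deletion, and the difference was called upward for 4 and downward for none (medians 2.18 and 0.80). Of these 4, only Nkd1 rose in both arms. The other 3 rose in polyps alone on the brightest probe set and are given further below. Notum, a secreted deacylase that inactivates Wnt ligands, read 1325, 916 and 2283 in polyps, 74.0, 108 and 78.9 in normal colon, 62.6 to 354 (median 117) in Apcfl/fl and 37.0 to 90.0 (median 53.5) in wild-type small intestine. Its polyp effect of 3.80 ± 0.39 exceeded the deletion effect of 0.98 ± 0.22 (limma adjusted p = 1.44e-04). Nkd1, an intracellular antagonist, showed the same order, 3.20 ± 0.30 against 0.80 ± 0.17. Etv5, an ETS factor gene downstream of MAP kinase signalling, rose by 3.04 ± 0.32 and 1.00 ± 0.18, and the transcription factor gene Sox17 by 3.92 ± 0.45 and 1.40 ± 0.26.

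Other genes called in this way were dim in normal colon but present in wild-type small intestine. Onecut2, a homeobox gene, read 721, 598 and 751 in polyps and 6.80, 1.61 and 3.12 in normal colon, while wild-type small intestine was at 114 to 799 (median 352) and Apcfl/fl at 189 to 761 (median 543). Slc30a2, a zinc transporter gene, likewise read 995, 1028 and 2341 in polyps and 38.9, 26.3 and 25.5 in normal colon against 264 to 652 (median 429.9) in wild-type small intestine. For both genes the polyp level lay within or above the range of wild-type small intestine, and the larger polyp effect went with a lower level in normal colon. Pla2g2a, a secretory phospholipase gene known in mice as a modifier of polyp number with strain-dependent alleles, was listed here too, but its deletion effect was 1.85, -0.48 and 4.19 at days 3, 4 and 5 and its wild-type arrays ran from 171 to 6742 (median 296).

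What polyps had and the acute response lacked was led by neutrophil genes. Of 11 neutrophil genes, 10 rose in polyps, none rose and 3 fell after deletion, and the difference was called upward for 10 (medians 1.90 and -0.29). Over all genes 10.4% rose in polyps and 24.3% fell after deletion. S100a9, a subunit of calprotectin, read 3491, 2105 and 3638 in polyps and 65.4, 5.24 and 1.31 in normal colon, 4.47 to 68.1 (median 11.8) in Apcfl/fl and 2.67 to 56.6 (median 13.9) in wild-type small intestine. The effects were 6.60 ± 0.54 and -0.06 ± 0.31 and a difference of 6.66 ± 0.63 (limma adjusted p = 1.62e-07). Its partner S100a8 differed by 5.53 ± 0.48. The summed signal of the neutrophil list was 8612 to 13870 in polyps and 593 to 707 in normal colon. In small intestine it was 504 to 1041 on wild-type arrays and 438 to 1000.1 on Apcfl/fl arrays. In bulk tissue, more cells of a type and more RNA per cell cannot be told apart, for this list and for those that follow.

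Lcn2, which encodes the siderophore-binding lipocalin 2 of neutrophils and inflamed epithelium, read 3379, 2428 and 3814 in polyps and 37.2, 44.0 and 55.3 in normal colon, a polyp effect of 5.70 ± 0.64. Its deletion effect was 0.22 ± 0.37 (limma adjusted p = 0.647), although the Apcfl/fl arrays ranged from 27.4 to 526 (median 72.1) and the daily effects were -1.25, 0.55 and 1.35. Reg3g and Reg3b, antimicrobial lectin genes, rose by 5.17 ± 0.37 and 4.91 ± 0.28 in polyps. For Reg3b the polyps read 2069, 1783 and 2119.6 and normal colon 68.6, 50.4 and 36.3, but wild-type small intestine was already at 4419.5 to 13566 (median 8228), above every polyp array. The other genes of their list did not share this direction. Of 10 Reg lectins and resistin-like genes, 3 rose and 3 fell in polyps, 1 rose and 4 fell after deletion, and the summed signal of the list was 4590 to 7168 in polyps and 13155 to 14539 in normal colon. Saa3 and Hp, acute phase genes, rose by 4.59 ± 0.57 and 4.56 ± 0.85, while Saa1, of the same acute phase family as Saa3, fell by 4.03 ± 0.78 in polyps (24.3, 752 and 1611 against 6471, 7132 and 4698). The probe set named Defa31 rose by 5.99 ± 0.36 in polyps, and since α-defensin genes are near-identical copies the member it measured is uncertain. Arg1, the arginase of alternatively activated macrophages and some other myeloid cells, read 531, 369 and 949.6 in polyps and 2.03, 14.3 and 1.23 in normal colon, and Alox12, an arachidonate lipoxygenase gene, 1020.0, 793 and 1213 and 22.0, 16.6 and 29.9. Their deletion effects were -0.08 and -0.07. Macrophage genes followed in part, with 8 of 19 up in polyps, 1 up and 11 down after deletion, and 10 differences called upward. That count was 6 without polyp replicate 1.

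Matrix metalloproteinases formed another such group. Of 17 genes for metalloproteinases, their inhibitors and plasminogen activation, 14 rose in polyps, 5 rose and 4 fell after deletion, and 13 differences were called, all upward (medians 1.90 and -0.20). Mmp13, collagenase 3, read 4103, 2234 and 3015 in polyps, 32.4, 51.3 and 29.7 in normal colon, 57.1 to 368 (median 78.3) in Apcfl/fl and 71.9 to 186 (median 87.9) in wild-type small intestine. The lowest polyp array was above every array of the other groups, and the effects of 5.84 ± 0.34 and 0.14 ± 0.20 differed by 5.71 ± 0.39 (limma adjusted p = 1.41e-09). Mmp12, Mmp3 and Mmp9, encoding the macrophage elastase, stromelysin 1 and gelatinase B, had polyp effects of 3.85, 3.50 and 3.75 and deletion effects of -0.34, -0.20 and -0.66, the last of which was a fall (limma adjusted p = 0.0177).

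Mmp10 and Mmp7 rose in both arms. For Mmp10, stromelysin 2, polyps read 4322, 2065 and 3214 and normal colon 16.4, 13.7 and 13.2, while Apcfl/fl arrays were at 446 to 759 (median 643) and wild-type arrays at 119.7 to 595 (median 313). For Mmp7, matrilysin, a Paneth cell protease of the small intestine and a Wnt target, the values were 3499, 2766 and 3184 and 91.9, 151 and 98.7 in the colon and 1462 to 5287 (median 2472) and 722 to 2429.9 (median 1067) in the small intestine. The polyp effects of 6.66 ± 0.37 and 4.63 ± 0.30 exceeded the deletion effects of 0.97 ± 0.21 and 1.19 ± 0.18 by 5.70 and 3.44. Plat, tissue plasminogen activator, rose by 4.04 ± 0.32 and 0.78 ± 0.19 (a dimmer probe set fell by 0.67 after deletion), and Plaur, the urokinase receptor gene, by 2.03 ± 0.25 in polyps with a deletion effect of 0.06 ± 0.14. Mmp7 has 2 promoter windows, and the second, which is not shown, holds no AP-1 word. Promoter windows of 3 of the metalloproteinases that rose most are shown because each holds 1 AP-1 word. It starts at base 216 for Mmp13 (chr9:7272264-7272563, plus strand), at base 188 for Mmp10 (chr9:7502092-7502391, plus strand) and at base 188 for Mmp7 (chr9:7691840-7692139, plus strand), where a Tcf/Lef word on the opposite strand follows at base 255.
Mmp13: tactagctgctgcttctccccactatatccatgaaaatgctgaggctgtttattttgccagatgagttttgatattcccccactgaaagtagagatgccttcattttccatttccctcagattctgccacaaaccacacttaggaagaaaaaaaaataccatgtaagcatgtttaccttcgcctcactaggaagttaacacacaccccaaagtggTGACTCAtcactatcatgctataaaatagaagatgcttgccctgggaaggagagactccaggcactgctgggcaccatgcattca
Mmp10: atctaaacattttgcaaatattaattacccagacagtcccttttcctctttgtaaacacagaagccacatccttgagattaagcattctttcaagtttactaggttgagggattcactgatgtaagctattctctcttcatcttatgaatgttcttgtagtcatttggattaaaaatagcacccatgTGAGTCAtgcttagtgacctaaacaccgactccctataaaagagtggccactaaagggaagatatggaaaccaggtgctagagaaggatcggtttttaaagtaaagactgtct
Mmp7: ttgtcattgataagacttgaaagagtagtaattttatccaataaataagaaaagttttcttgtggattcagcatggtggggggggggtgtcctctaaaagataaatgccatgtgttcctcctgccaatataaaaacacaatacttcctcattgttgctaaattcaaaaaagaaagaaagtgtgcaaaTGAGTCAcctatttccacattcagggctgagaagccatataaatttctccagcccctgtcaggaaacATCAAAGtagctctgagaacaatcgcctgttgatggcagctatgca
S100a8, S100a9 and Lcn2 held neither word in their windows. These 3 windows were chosen for their genes' effects and their matches, so they do not measure how common the word is among adenoma genes.

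Cytokines and chemokines were the next group. Of 20 cytokine and growth factor genes, 12 rose in polyps, none rose and 6 fell after deletion, and 13 differences were called upward (medians 1.24 and -0.23). Il11, an interleukin of the gp130 family, read 632, 458 and 254 in polyps and 11.3, 2.02 and 13.4 in normal colon, and 2.37 to 27.0 (median 17.0) in Apcfl/fl against 4.42 to 27.4 (median 6.29) in wild-type small intestine, with a difference of 3.80 ± 0.38 (limma adjusted p = 3.11e-07). Il1b read 1261, 892 and 400.0 against 98.0, 139 and 135, and Inhba, the activin A subunit gene, 641, 308 and 557 against 11.1, 57.7 and 72.9. Il6 was dim (128, 59.0 and 23.1 in polyps against 20.6, 1.21 and 11.2). Il33, an alarmin gene, moved in opposite directions, at 2.62 ± 0.31 in polyps and -0.61 ± 0.18 after deletion. Its wild-type small intestinal level of 275 to 565 (median 395) spanned that of polyps (493, 532 and 335), and normal colon was far below (63.0, 64.4 and 50.3). Of 23 chemokine genes, 8 differences were called upward and 3 downward, with 9 up and 4 down in polyps and 2 up and 9 down after deletion. The neutrophil attractants Cxcl5 and Cxcl2 rose by 4.13 ± 0.42 and 4.10 ± 0.47 with deletion effects of -0.19 and -0.01. Ccl28, a mucosal chemokine made by colonic epithelium, fell by 3.01 ± 0.32 in polyps (107, 195 and 232 against 1879.9, 1617 and 1068) with a deletion effect of -0.11. Ptgs2, the inducible cyclooxygenase gene, rose by 1.58 ± 0.42 with a deletion effect of -0.54 ± 0.24.

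Secreted Wnt antagonists were mixed. Of 12 measured, 5 rose and 2 fell in polyps, 2 rose and 3 fell after deletion, and the difference was called upward for 4 and downward for 1. Of these 4, 3 rose in polyps alone, and 1, Notum, rose in both arms as given above. Wif1, Wnt inhibitory factor 1, read 1160.0, 985 and 1403 in polyps and 35.0, 26.7 and 23.7 in normal colon, while all 18 small intestinal arrays were at 0.788 to 17.3. Its polyp effect was 4.75 ± 0.24 and its deletion effect 0.02 ± 0.14 (limma adjusted p of the difference = 2.23e-10). Dkk2, a ligand of the Wnt co-receptor Lrp6, read 248, 225 and 593 against 3.33, 7.36 and 12.1, with a deletion effect of 0.03 ± 0.24. Sfrp2, a secreted frizzled-related protein gene, fell (72.8, 40.5 and 84.5 against 175, 172 and 238), but its difference was lost in 7 of the 39 alternatives. For 3 further genes of the pathway the call in polyps alone rested on the probe set. Apcdd1, a membrane-bound Wnt inhibitor gene, had effects of 2.18 ± 0.27 and -0.15 ± 0.16, but 4 dimmer probe sets of it rose after deletion, by 0.79 to 1.18. The factor gene Lef1 (1.54 ± 0.20 and 0.18 ± 0.11) and Prox1, a homeobox gene of intestinal adenomas (2.57 ± 0.35 and 0.39 ± 0.20), likewise each had a dimmer probe set that rose after deletion, by 0.66 and 0.75.

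Matrix and basement membrane genes were higher in polyps in part. Of 22 fibroblast genes, 8 rose and 3 fell in polyps, none rose and 5 fell after deletion, and 9 differences were called upward. Of 16 basement membrane genes, 8 differences were called upward, or 5 without normal colon replicate 2. Col1a1, the type I collagen chain gene, read 954, 1195 and 2915 in polyps and 371, 451 and 368 in normal colon (effects 1.88 ± 0.34 and -0.38 ± 0.19), and Col18a1, of the basement membrane, 744, 791 and 1248 and 135, 185 and 150.3 (effects 2.42 ± 0.26 and -0.18 ± 0.15). Genes of the fetal or regenerating epithelium were mixed, with 9 of 24 differences called upward and 2 downward (1 without normal colon replicate 2). Clu, clusterin, read 3203, 2420.2 and 3375 in polyps and 464, 732 and 326 in normal colon, with effects of 2.59 ± 0.55 and -0.29 ± 0.32. For 53 of the 386 adenoma-only genes that rose (13.7%) every wild-type small intestinal array lay above every normal colon array, as it did for 7.93% of all genes. Of the 386, 73 (18.9%) stayed below 50 on all 18 small intestinal arrays, against 7.80% of all genes.

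**Figure D3:**
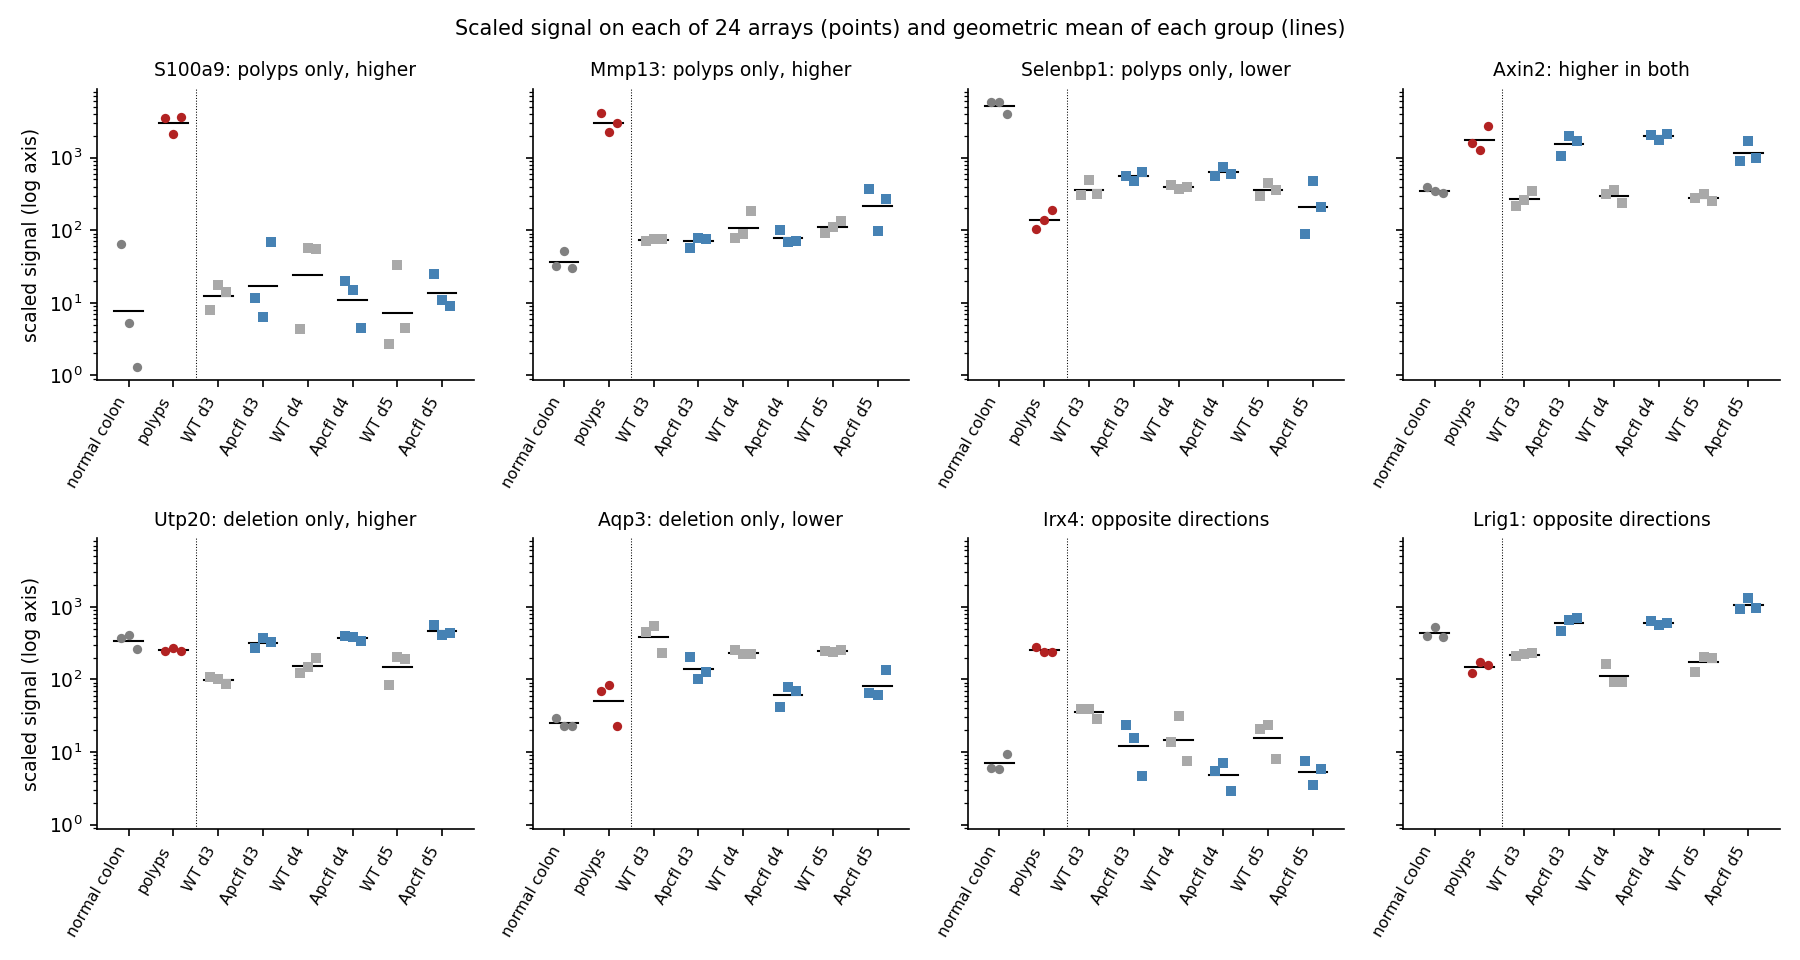
Scaled signal (log axis) on each of the 24 arrays for 8 genes, 1 panel per gene, with 1 point per array, a short line at the geometric mean of each group, and the groups along the horizontal axis. S100a9 and Mmp13 are high in the 3 polyps alone, Selenbp1 falls in polyps alone, Axin2 rises in both arms, Utp20 rises and Aqp3 falls after deletion alone, and Irx4 and Lrig1 move in opposite directions.

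Genes of the mature colonic surface fell in polyps. Of 29 colonocyte genes, 23 fell in polyps and none rose, 2 rose and 9 fell after deletion, and 22 differences were called, all downward (medians -2.68 and -0.22). The shares of all genes that fell were 11.6% in polyps and 24.3% after deletion. Selenbp1, a selenium-binding protein gene of surface epithelium, read 104, 139 and 191 in polyps and 5803, 5769.5 and 4010.1 in normal colon, a fall of the mean to 0.0278 of its level. Apcfl/fl arrays read 89.1 to 743 (median 551) and wild-type arrays 296 to 494 (median 369), and the difference was -5.20 ± 0.41 (limma adjusted p = 1.04e-08). Slc26a3, the chloride-bicarbonate exchanger of the colon surface, fell in both arms but more in polyps, at -6.39 ± 0.51 against -1.09 ± 0.29. Aqp8, a colonic aquaporin gene, read 59.3, 127 and 65.3 against 1512, 4016 and 2786, and Krt20, a keratin of differentiated epithelium, 633, 677 and 618 against 4641, 5733 and 3794. Their deletion effects were -0.50 ± 0.23 and -0.19 ± 0.15. Car4, a membrane carbonic anhydrase gene, had effects of -5.58 ± 0.50 in polyps and -2.64 ± 0.29 after deletion, and the guanylin gene Guca2a -3.57 ± 0.40 and -0.38 ± 0.23.

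For 218 of the 576 adenoma-only genes that fell (37.8%), every wild-type small intestinal array lay below every normal colon array, against 9.67% of all genes. Hao2, a hydroxyacid oxidase gene, read 1545, 1868 and 1614 in normal colon and 0.911 to 9.61 in all small intestinal arrays, close to the lowest signals on these arrays. Krt20 was different, at 4272 to 7119 (median 5520.1) in wild-type small intestine and 2723 to 8583 (median 5007) in Apcfl/fl, and so was Fabp2, the intestinal fatty acid binding protein gene, which fell by 3.39 ± 0.33 in polyps and read 2810.2 to 11724 (median 8102) in Apcfl/fl against 6011 to 11204 (median 8072) in wild-type small intestine.

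Secretory lineages differed. Of 20 goblet cell genes, 16 fell in polyps and 9 after deletion, 3 rose after deletion, and 14 differences were called downward, 8 of them after quantile normalization (medians -1.60 and -0.26). Atoh1, the transcription factor of the secretory lineage, read 129.8, 144 and 206 in polyps and 943, 1108 and 1249 in normal colon. In the small intestine it read 181 to 518 (median 257) in Apcfl/fl and 212 to 425 (median 274) in wild-type arrays, and the difference was -2.61 ± 0.29 (limma adjusted p = 1.33e-06). Clca1 and Fcgbp, secreted goblet cell products, fell in both arms and more in polyps, at -4.20 ± 0.51 and -3.04 ± 0.29 against -1.27 ± 0.29 and -0.83 ± 0.17. After deletion their fall was unequal over days, with 0.62, -0.99 and -3.44 for Clca1 at days 3, 4 and 5. Of 23 enteroendocrine genes, 11 fell in polyps and 10 after deletion, and the differences ran both ways, 7 downward and 5 upward (3 without normal colon replicate 2). Chgb, chromogranin B, read 62.8, 74.4 and 74.2 in polyps, 654, 970.0 and 707 in normal colon, 914 to 1703 (median 1367) in Apcfl/fl and 703 to 1533 (median 1141) in wild-type small intestine. Insl5, a hormone gene of colonic L cells, fell by 3.41 ± 0.30 in polyps. Of 16 Paneth cell genes, in contrast, 9 rose and 3 fell in polyps, 7 rose and 1 fell after deletion, and 7 differences were called upward and 5 downward (2 without normal colon replicate 1). Of 13 tuft cell genes, 2 rose and none fell in polyps, 1 rose and 5 fell after deletion, and 2 differences were called upward and 1 downward.

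Smooth muscle genes fell in polyps. Of 17, 15 fell in polyps, against 11.6% of all genes, and 3 after deletion, against 24.3% of all genes. The difference was called downward for 10 (median effects -2.62 and -0.23). The summed signal of the list was 3950 to 7716 in polyps and 19379 to 28497 in normal colon. In small intestine it was 4679 to 16093 on wild-type arrays and 3411 to 15178 on Apcfl/fl arrays. Desmin (Des) read 10.2, 10.6 and 17.9 in polyps and 442, 777 and 1354 in normal colon, while wild-type small intestinal arrays alone ranged from 8.37 to 657 (median 272). The part of muscle content in the other differences was not tested.

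Genes of antigen presentation by class II molecules fell as well. All 10 class II genes measured fell in polyps, against 11.6% of all genes, and 3 fell after deletion, against 24.3% of all genes. The difference was called downward for 6 (median effects -1.81 and -0.22). H2-Aa, a class II chain gene, read 1769, 1467 and 1296 in polyps, 7731, 6727 and 4845 in normal colon, 2897 to 6867 (median 5322) in Apcfl/fl and 4051 to 6302 (median 5202) in wild-type small intestine, a polyp effect of -2.06 ± 0.22 and a deletion effect of 0.00 ± 0.13. Ciita, the class II transactivator gene, fell by 1.38 ± 0.27 in polyps with a deletion effect of 0.07 ± 0.16. B2m, the class I light chain gene, read 4565, 3080.2 and 3492 against 10829, 7456 and 5768 in the colon (polyp effect -1.08 ± 0.23). Its difference was not called after quantile normalization or with the authors' standardized values. Of 19 interferon-induced genes, 10 fell in polyps and 7 differences were called downward, but polyp replicate 1 stood apart, at 377, 109 and 83.2 in replicates 1, 2 and 3 for the oligoadenylate synthetase gene Oas2 (normal colon 713, 497 and 551). Without polyp replicate 1 the count was 15 and without polyp replicate 2 it was 2. Psmb8, an immunoproteasome subunit gene, read 628, 256 and 322 in the 3 polyps and 1598, 1888 and 1135 in normal colon.

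Of 24 Hox and gut position genes, 2 rose and 6 fell in polyps, 3 rose and 7 fell after deletion, and 4 differences were called upward (2 without normal colon replicate 1) and 5 downward. Over all genes 10.4% rose and 11.6% fell in polyps, and 29.4% rose and 24.3% fell after deletion. The deletion counts of this list were thus near or below the general shares. Cdx2, the caudal homeobox factor gene, read 84.7, 154 and 71.9 in polyps and 486, 843 and 402 in normal colon, and 774 to 2512 (median 1708) in Apcfl/fl against 761 to 1372 (median 938) in wild-type small intestine. The polyp effect of -2.30 ± 0.27 and the deletion effect of 0.48 ± 0.15 pointed in opposite directions, with a difference of -2.78 ± 0.31 (limma adjusted p = 1.51e-06). Cdx1 behaved in the same way, at -1.52 ± 0.30 and 0.70 ± 0.17. Hnf4a, the nuclear receptor gene of enterocyte differentiation, read 1223, 1176 and 1065 against 3392, 3436 and 2963, with a deletion effect of 0.31 ± 0.14. Of 19 epithelial marker genes, 12 fell in polyps and none after deletion, and 13 differences were called downward. This count fell to 4 after quantile normalization, to 4 with the authors' standardized values and to 6 without polyp replicate 2, so it rests on the scaling. Cdh1, E-cadherin, was among the genes lost under both scalings (-0.58 ± 0.20 and 0.46 ± 0.11).

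Ribosome biogenesis genes rose after deletion, and some of them also in polyps. Of 21 ribosome biogenesis genes, all rose after deletion, and 9 rose and none fell in polyps (medians 1.40 and 0.64). The difference was called downward for 5, for 6 after median centring, for 1 after quantile normalization and for none with the authors' standardized values, with median differences of -0.61, -0.66, -0.43 and -0.50. Without normal colon replicate 2 the count was 2. Nop56, a nucleolar protein gene, rose in both, by 1.14 ± 0.22 and 1.74 ± 0.13, and its difference was called on a dimmer probe set alone (-0.76). Utp20, a small subunit processome gene, read 269 to 565 (median 384) in Apcfl/fl and 84.9 to 204 (median 124) in wild-type small intestine, without overlap on any day, but 248, 268 and 245 in polyps and 368, 411 and 266 in normal colon, where the groups overlapped. Its deletion effect was 1.43 ± 0.15, its polyp effect -0.41 ± 0.25 and the difference -1.84 ± 0.29 (limma adjusted p = 1.30e-04). Tsr1, another ribosome assembly factor gene, had a deletion effect of 1.70 ± 0.15 and a polyp effect of -0.11 ± 0.26.

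Stem cell genes rose after deletion and only in part in polyps. Of 19, 18 rose after deletion and none fell, while 9 rose and 3 fell in polyps (medians 1.63 and 0.60), and the difference was called downward for 9 and upward for 1. Sox9, a crypt transcription factor gene, read 294 to 578 (median 389) in Apcfl/fl and 69.3 to 130.3 (median 94.2) in wild-type small intestine, and 526, 339 and 435 in polyps and 239.8, 243 and 362 in normal colon. The deletion effect was 1.91 ± 0.15 and the polyp effect 0.60 ± 0.25, but a dimmer probe set of Sox9 rose in polyps, by 1.02. Ascl2, a master factor gene of crypt base stem cells, rose in both arms and more after deletion, by 2.64 ± 0.16 against 1.42 ± 0.27. Its difference of -1.22 ± 0.31 was not called after quantile normalization or with the authors' standardized values. Slc12a2, a basolateral ion cotransporter gene of crypt cells, rose by 1.87 ± 0.13 after deletion with a polyp effect of 0.41 ± 0.22, and Cdca7, a MYC-responsive gene, by 2.13 ± 0.13 with 0.60 ± 0.23. Dimmer probe sets of both genes rose in polyps, 2 of Slc12a2 by 1.48 or more and 1 of Cdca7 by 0.85. Smoc2, a matricellular stem cell gene, was the exception that rose more in polyps, at 1.99 ± 0.23 against 1.07 ± 0.13. Olfm4, a crypt gene of the small intestine, was at 28.6 to 64.9 in polyps and 23.0 to 52.6 in normal colon against 2474 to 3788 (median 3202) in wild-type small intestine, and its deletion effect of 1.00 ± 0.13 thus stood against dim colonic values. Its difference was lost in 19 of the 39 alternatives.

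Single genes led the deletion-only rise. Pla2g5, a secretory phospholipase gene, read 328 to 1239.7 (median 582) in Apcfl/fl and 41.6 to 253 (median 170.0) in wild-type small intestine but 129, 96.1 and 69.4 in polyps and 158, 314 and 195 in normal colon. Kcnq1, a potassium channel gene, and Kcnq1ot1, the non-coding RNA within it, rose by 1.91 ± 0.15 and 2.22 ± 0.22 after deletion with polyp effects of 0.10 and -0.45. A dimmer probe set of Kcnq1ot1 fell, by 0.41. The probe sets lie in overlapping genes and the array's reading of each strand was not examined. Mecom, a zinc finger factor gene, rose by 2.50 ± 0.17 after deletion (289 to 1289 (median 795) against 91.4 to 183 (median 128)), while normal colon was already at 551, 666 and 519 and polyps at 831, 775 and 1018. For 181 of the 698 deletion-only genes that rose (25.9%), every wild-type small intestinal array lay below every normal colon array, as for Mecom, against 9.67% of all genes. Of 12 cholesterol synthesis genes, 7 rose after deletion, 3 fell in polyps and 5 differences were called downward (8 without wild-type day 3 replicate 3). Sqle, squalene epoxidase, rose by 0.87 ± 0.20 after deletion with a polyp effect of -0.93 ± 0.35 (667, 794 and 792 against 1816, 1673 and 976).

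Deletion-only falls included small intestinal absorptive and hormone genes that were dim in normal colon. Of 31 enterocyte genes, 21 fell after deletion and none rose, and 8 fell in polyps, with differences called upward for 5 and downward for 6. The upward count was 1 without polyp replicate 1. The summed signal of the list was 82609 to 145240 in wild-type and 28651 to 148270 in Apcfl/fl small intestine, 5561 to 7287 in normal colon and 2756 to 2859 in polyps. Dnase1, a secreted nuclease gene, read 17.7 to 2211 (median 157) in Apcfl/fl and 913 to 4099 (median 1621) in wild-type small intestine, a deletion effect of -3.18 ± 0.38, and was at 4.78 to 17.5 in normal colon and 4.51 to 8.85 in polyps. Apoc3, an apolipoprotein gene, fell by 1.60 ± 0.22 after deletion and was at 18.9 to 41.3 in normal colon. The hormone gene Cck, of duodenal and jejunal I cells, read 73.8 to 227 (median 146) in Apcfl/fl and 239.9 to 427 (median 311) in wild-type small intestine, and 18.3 to 29.9 in polyps. All 6 colonic arrays were below 50 for 58 of the 432 genes (13.4%, against 10.5% of all genes). Every wild-type small intestinal array lay above every normal colon array for 122 (28.2%, against 7.93%).

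Other genes of this class were well measured in colon. Il18, an epithelial cytokine gene, read 192 to 579 (median 362) in Apcfl/fl and 611 to 2363 (median 1262) in wild-type small intestine, without overlap on any day, and 530.0, 614 and 729 in polyps against 497, 1050.4 and 708 in normal colon. Its deletion effect was -1.77 ± 0.20 and its polyp effect -0.21 ± 0.35, with a difference of 1.56 ± 0.41 (limma adjusted p = 0.0119). The call was lost with day 3 alone, with day 4 alone, against a log2 threshold of 1 and without normal colon replicate 1. Slc7a8, an amino acid transporter gene, fell by 1.46 ± 0.16 after deletion, and polyps at 210.3, 159 and 194 did not overlap normal colon at 148, 81.4 and 91.7, with a polyp effect of 0.76 ± 0.28 that missed the threshold (limma adjusted p = 0.0545). Pyy, the peptide YY gene, was higher in colon (765, 1279 and 856, and 1518, 977 and 2268 in polyps) than in wild-type small intestine (82.3 to 161 (median 105)) and had effects of 0.66 ± 0.30 in polyps and -0.77 ± 0.17 after deletion.

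Genes that fell in polyps and rose after deletion included regulators of the crypt. Lrig1, a negative regulator of ErbB receptors and a stem cell marker, read 121, 174 and 159.6 in polyps and 395, 533 and 382 in normal colon, but 460.0 to 1310.4 (median 651) in Apcfl/fl against 91.9 to 229 (median 195) in wild-type small intestine. No pair overlapped, within any day for the small intestine. The effects were -1.43 ± 0.23 and 2.05 ± 0.14, with a difference of -3.49 ± 0.27 (limma adjusted p = 1.04e-08). Sema5a, a semaphorin gene, fell by 2.54 ± 0.27 in polyps and rose by 1.52 ± 0.15 after deletion. Esrrg, an orphan nuclear receptor gene, gave -1.71 ± 0.25 and 1.74 ± 0.15, and the aquaporin gene Aqp4 -2.88 ± 0.33 and 1.81 ± 0.19. Slc16a1, the butyrate and lactate transporter gene, read 571, 656 and 415 in polyps and 2361, 2466 and 2123 in normal colon, and 1470.1 to 2701 (median 2139.5) in Apcfl/fl against 723 to 1388 (median 1225) in wild-type small intestine. For 96 of the 156 genes of this kind (61.5%) every wild-type small intestinal array lay below every normal colon array, against 9.67% of all genes. Of 2 dimmer probe sets each of Lrig1 and Esrrg, 1 rose and 1 fell after deletion (1.49 and -0.61 for Lrig1, 0.63 and -0.46 for Esrrg).

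In the other direction, Irx4, an Iroquois homeobox gene, read 283, 240.1 and 239 in polyps and 6.08, 5.85 and 9.53 in normal colon, and 2.92 to 23.3 (median 5.75) in Apcfl/fl against 7.47 to 39.6 (median 23.3) in wild-type small intestine. The effects were 3.54 ± 0.25 and -0.67 ± 0.15. Its signal outside polyps was at most 39.6, so the fall after deletion was of a dim probe set. Basp1, a membrane-associated signalling protein gene, was brighter, at 1528, 1002 and 1511 in polyps and 291, 307 and 252 in normal colon, and 105 to 212 (median 125) in Apcfl/fl against 177 to 244 (median 216) in wild-type small intestine. Pcdh19, a protocadherin gene, gave 1.43 ± 0.23 and -1.06 ± 0.13. Tyrobp, an adaptor of myeloid cells, gave 0.84 ± 0.24 and -0.83 ± 0.14, and the neutrophil granule gene Ngp 2.19 ± 0.32 and -0.85 ± 0.18. Of 17 lymphocyte genes, 13 fell after deletion and 5 in polyps.

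Among the 784 genes lower in both arms was Efemp1, a fibulin gene, which read 62.5, 104 and 127 in polyps and 513, 379.8 and 463 in normal colon, and 33.4 to 104 (median 68.2) in Apcfl/fl against 150.2 to 267 (median 181) in wild-type small intestine (effects -2.07 ± 0.28 and -1.42 ± 0.16). Phlpp2, a phosphatase gene that acts on Akt, had effects of -2.13 ± 0.29 and -1.36 ± 0.17, and Slc36a1, a proton-coupled amino acid transporter gene, -2.26 ± 0.35 and -1.49 ± 0.20. Prss30, an intestinal serine protease gene, had effects of -3.86 ± 0.57 in polyps and -2.36 ± 0.33 after deletion. The difference was called for none of these 4 genes on the brightest probe set, and for Phlpp2 on a dimmer one (1.03). All 13 B cell genes measured fell in polyps and 7 of them also after deletion (medians -1.53 and -0.73). Of 21 genes of drug metabolism, 13 fell in each arm and 8 in both, with medians of -1.80 and -0.85, and 7 differences were called downward and 2 upward. Sult1d1, a sulfotransferase gene, fell in both and more in polyps, at -4.34 ± 0.46 against -1.55 ± 0.26 (32.5, 77.6 and 65.6 in polyps and 1148, 1851 and 1385 in normal colon).

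**Figure D4:**
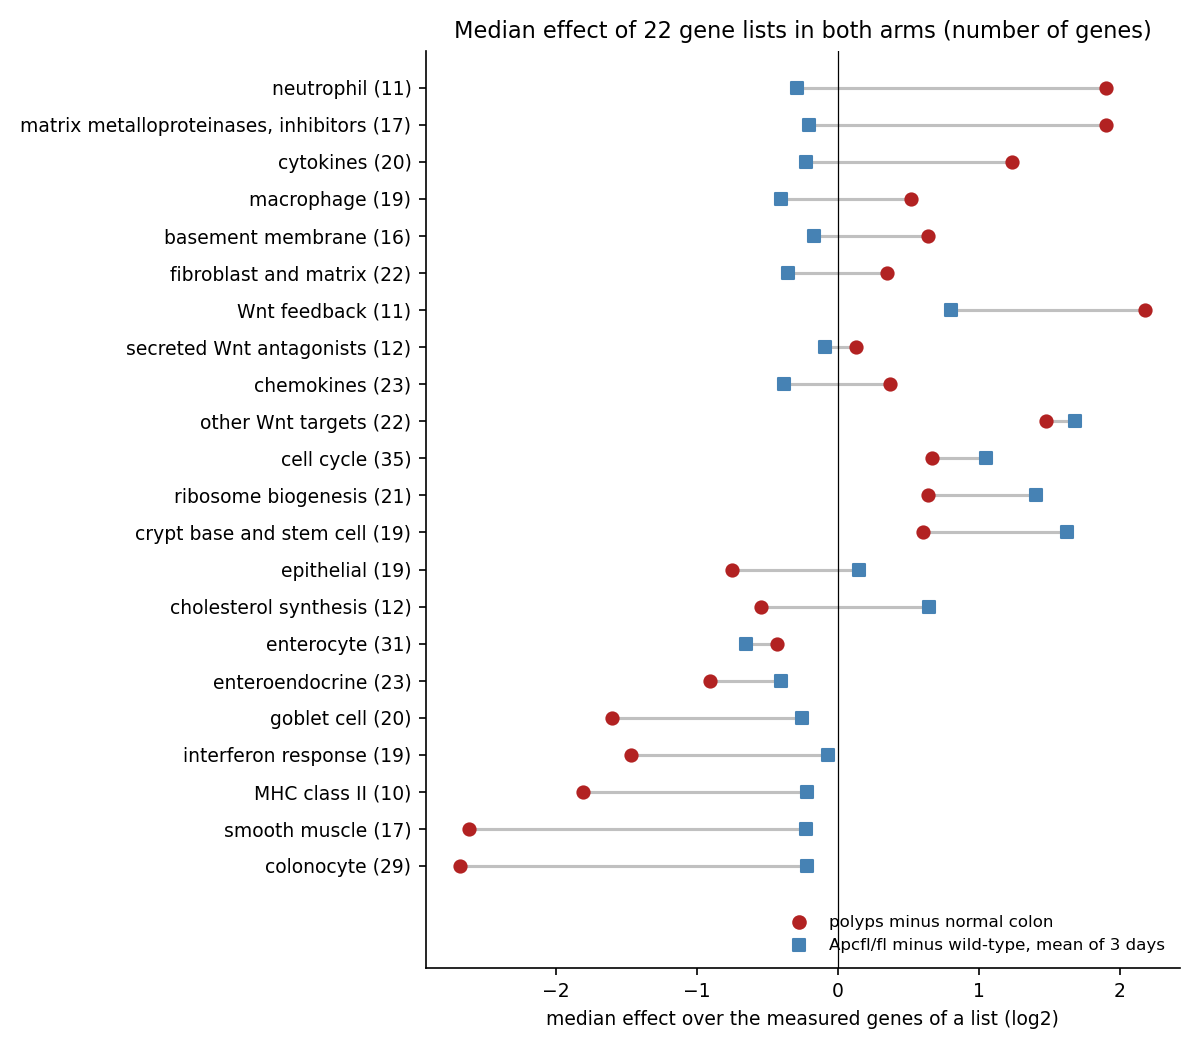
Median polyp effect against median deletion effect of gene lists (log2(signal + 16), 1 row per list and 1 symbol per arm). Wnt targets and cell cycle genes lie above 0 in both arms, neutrophil and metalloproteinase lists in polyps alone (1.90 and 1.90 against -0.29 and -0.20), and colonocyte and smooth muscle lists lie low in polyps alone (-2.68 and -2.62).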

How the data were processed

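Mouse intestinal RNA was read on 24 MOE430_2 arrays. The authors deposited each array as a standardized natural-log score per probe set, and both deposited tables held identical values in 842640 of 842640 cells. The sources used here do not name the summarising software. The signal behind each score was recovered from its steps of 0.1, scaled to a geometric mean of 100 per array, and taken as log2(signal + 16). Of 35110 probe sets, 44 controls were left out, and a gene (15427 in all) was read from its brightest probe set among those with 1 gene symbol (28153 had 1, 769 several and 6144 none, from the platform annotation). Old symbols were checked against RefSeq, in which 28030 probe sets matched and 0 changed.

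All 35066 probe sets were fitted in limma 3.58.1 (R 4.3.3) with 1 mean per group and 16 residual degrees of freedom, and p-values were adjusted by Benjamini-Hochberg over all 35066, from which the genes were then read. limma was chosen because no test of the arrays is stated in the sources used here. Each array was taken as 1 sample. The labels name different animals except for Apcfl/fl at day 4, whose arrays carry numbers only, and p-values measure the spread between these samples. Precision is limited by the number of arrays.

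Genes named by rule were the 15 with the largest differences in each direction among adenoma-only and deletion-only genes, the 8 largest in each direction among opposed genes, the 15 shared genes in each direction with the largest smaller effect, the genes the study names, and the 5 largest called members of each list. In the first 3 sets, groups had to be without overlap wherever the class calls an effect, within each day for the deletion effect. Other genes were named after their values were seen. The comparison, the 58 gene lists and the rule were chosen with earlier results of these data known. Alternatives were another offset, normalization, probe set rule, variance model or weighting, single days, a fold threshold, and leaving out each array. The fit was tested on simulated data. Where a polyp or a deletion effect of log2 1 was put in, the difference was called for 25% and 33% of changed probe sets. For effects of log2 2 it was called for 87% and 89%. A difference that was not called can thus still be of log2 1.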

Additional observations from a re-analysis of the deposited data

Results flagged for a closer look

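The polyp and the deletion effect differed for 1089 genes upward and 1688 downward, by a test of the difference itself in limma. The balance of both counts changes with the scaling, as given in the report.

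A further 16 genes were singled out because polyps and acute deletion moved them in opposite directions, without overlap of polyps and normal colon and without overlap of genotypes on any of the 3 days. Higher in the polyp effect were Irx4 with a difference of 4.21, Ngp with 3.04, Basp1 with 2.72, Pcdh19 with 2.49, Tubb4a with 2.23, Serpinb11 with 1.99, Arhgef2 with 1.82 and Slc16a10 with 1.80. Lower were Aqp4 with -4.69, Sema5a with -4.06, Lrig1 with -3.49, Esrrg with -3.45, Htr4 with -3.44, Map2k6 with -3.06, Slc16a1 with -3.04 and Cttnbp2 with -3.00. No explanation was weighed for any of them.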

How the results depend on the processing

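No paired analysis was possible because the groups share no replicate numbers in the labels, where only the Apcfl/fl arrays of day 4 carry numbers and each colonic array names another animal. The study's methods call the polyp tissue paired with the normal colon, but the labels do not show which arrays would form a pair. Of 277 results for single genes, none changed sign, 112 kept their call in all 39 alternatives, 35 lost it without some array and 84 in another alternative other than the log2 threshold of 1, where 76 of the differences stayed called. Leaving out 1 array gave 746 to 1314 genes with a higher and 949 to 2066 with a lower polyp effect, 281 to 430 and 350 to 672 adenoma-only genes upward and downward, 336 to 894 and 247 to 584 deletion-only genes, 209 to 359 opposed genes, and 576 to 982 and 569 to 804 genes higher and lower in both. Moves of more than 1.5 times came without polyp replicate 1 (1113 lower, 441 and 275 deletion-only, 593 higher in both), polyp replicate 2 (949 lower, 350 adenoma-only downward, 336 and 247 deletion-only), polyp replicate 3 (597 higher in both), normal colon replicate 2 (1032 lower, 361 adenoma-only downward, 407 and 266 deletion-only) and normal colon replicate 3 (576 higher in both). Array weights gave 2112 higher and 3024 lower differences, 814 and 1044 adenoma-only, 1161 and 742 deletion-only, 643 opposed, and 1491 and 1249 genes higher and lower in both. Deletion-only genes upward numbered 390 after quantile normalization and 337 with the authors' standardized values. With day 3 alone there were 962 lower differences, 245 and 165 deletion-only, 95 opposed, and 460 and 220 genes higher and lower in both. Day 4 alone gave 718 higher and 937 lower differences, 271 and 215 deletion-only, 110 opposed and 345 lower in both, and day 5 alone 178 opposed. All 24 arrays entered these fits, but the deletion effect in each rested on the 3 Apcfl/fl and 3 wild-type arrays of 1 day. Against a log2 threshold of 1, 104 higher and 102 lower differences remained, with 84 and 76 adenoma-only, 2 and 0 deletion-only, 1 opposed, and 17 and 3 genes higher and lower in both. The cause of the moves was not tested. Differences of genes with signals near background, such as Il6 and Irx4 outside polyps, are limited by that signal.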
